A study of Mus musculus with 12 samples.

Results

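Messenger RNA of 10 genes for AP-1 and related basic leucine zipper (bZIP) transcription factors was examined in macrophages that had been grown from mouse bone marrow with macrophage colony-stimulating factor (BMDMs). The genes were chosen by symbol among 54446 gene identifiers in the deposited tables: Fos, Fosb, Fosl1 and Fosl2 of the Fos family, Jun, Junb and Jund of the Jun family, and Atf3, Batf and Maff. Each symbol matched 1 identifier, and all 10 genes passed the filter on low counts, which kept 13773 genes. RNA sequencing covered 4 labelled groups of 3 libraries each. The first 2 came from NLRC3ΔMac mice (LysM-Cre+ NLRC3fl/fl, labelled KO), given lipopolysaccharide (LPS) for 12 h or left without it, called medium here. The other 2 came from WT mice (LysM-Cre- NLRC3fl/fl), with LPS for 12 h or in medium. Both genotypes thus carry floxed Nlrc3 alleles, and Cre under the LysM promoter acts in cells of the myeloid lineage. The labels give no age or sex of the mice and do not say that replicates were separate animals. The p-values therefore reflect the spread among these libraries alone, part of which may be technical.

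AP-1 is a dimer. Fos proteins cannot pair with each other and need a Jun partner, while Jun proteins pair with Fos, with each other or with relatives such as Atf3 and Batf, and the dimers bind short palindromic DNA sites. In macrophages, LPS acts through Toll-like receptor 4 and the MAP kinases JNK, ERK and p38, which raise transcription of Fos and Jun genes and phosphorylate the proteins. Fos and Jun are classic immediate early genes, whose RNA appears and decays quickly after a stimulus, and 12 h is late on that scale.

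The libraries had 13082947 to 20960505 counts. Levels are in CPM, the counts of a gene scaled to a library total of 1000000, and 3 counts, taken as the floor, correspond to 0.143 to 0.229 CPM, which covers counting error only. Nlrc3, the targeted gene, went against the label under LPS: it stood at 15.6, 8.29 and 6.04 CPM in libraries labelled KO LPS against 0.996, 0.850 and 0.876 CPM in those labelled KO medium, and at 0.796, 4.39 and 1.40 CPM in WT LPS against 9.89, 13.6 and 10.4 CPM in WT medium. Nos2, the inducible nitric oxide synthase, which LPS raises in macrophages, averaged 2.51 ± 2.55 CPM in libraries labelled KO LPS against 2071 ± 820 CPM in those labelled KO medium, and 1896 ± 963 CPM in WT LPS against 6.06 ± 2.23 CPM in WT medium (SD, n = 3 each). Both genes thus stood in libraries labelled KO medium near their level in WT LPS, and in those labelled KO LPS near their level in WT medium. For this reason groups are called by their labels throughout, and a direction that involves KO is that of libraries labelled so. None of the 9 macrophage markers examined (Cd68, Adgre1, Csf1r and others) was at 0 in any library. Their summed level was 21536 to 34656 CPM in libraries labelled KO LPS against 10195 to 13106 CPM in those labelled KO medium, and 12739 to 19450 CPM in WT LPS against 32443 to 36024 CPM in WT medium. The members of that list did not all go 1 way: Lyz2, the most abundant, and Csf1r had lower means in libraries labelled KO medium and in WT LPS, while Fcgr1 and Cd14 had higher means there. Fcgr1 averaged 556 CPM in libraries labelled KO LPS against 1486 CPM in those labelled KO medium, and 1764 CPM in WT LPS against 438 CPM in WT medium. Summed neutrophil markers (12 genes, at most 1 of them at 0 in a library) ran from 896 to 7277 CPM, highest in libraries labelled KO LPS 2 and 3 and WT LPS 3. Summed markers of megakaryocytes were at 149 to 893 CPM, of stromal cells at 38.7 to 289 CPM, of B cells at 4.04 to 89.5 CPM and of T and NK cells at 0.567 to 16.6 CPM. Xist, made from the inactive X chromosome of female cells, was at 95.1 CPM or more in libraries labelled KO LPS 2 and 3, in WT LPS 2 and in WT medium 1 and 3, and in no library labelled KO medium. Those 5 libraries had at most 0.0512 CPM of 4 summed Y-linked genes, and the other 7 had 59.5 to 107 CPM. WT LPS 2 was thus the only library of its group with Xist, and those labelled KO LPS 1 and WT medium 2 the only ones of theirs with Y-linked RNA. A fit with a term for Xist, chosen after these levels were seen, is given beside the results it changed. In bulk RNA, fewer cells of a type and less RNA per cell cannot be told apart.

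Promoters of Fos, Jun, Junb, Atf3 and Batf are shown as examples from the pattern described below. Junb, Atf3 and Batf moved together, as did Fosl2, whose window is not shown. Fos moved the other way, but was not called in WT LPS against WT medium or in labelled KO medium against WT medium. Jun was called in no comparison when all 12 libraries were scaled by TMM, although scaling by totals called it in 3. Each sequence is the RefSeq promoter window of GRCm38.p6, running from 250 bases before to 50 bases after the annotated start, given 5′ to 3′ on the gene's own strand. Capitals mark TGACG (the core of the cyclic AMP response element, or CGTCA on the other strand), TGACATCA, TATAAA and the NF-kappaB motif.
Fos, chr12:85473640-85473939, plus strand: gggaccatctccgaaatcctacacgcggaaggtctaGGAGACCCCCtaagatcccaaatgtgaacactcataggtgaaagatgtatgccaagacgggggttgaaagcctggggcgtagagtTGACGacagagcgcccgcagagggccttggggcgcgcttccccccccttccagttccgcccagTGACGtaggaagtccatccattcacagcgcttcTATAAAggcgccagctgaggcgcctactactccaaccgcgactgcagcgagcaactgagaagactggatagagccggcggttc
Jun, chr4:95052173-95052472, minus strand: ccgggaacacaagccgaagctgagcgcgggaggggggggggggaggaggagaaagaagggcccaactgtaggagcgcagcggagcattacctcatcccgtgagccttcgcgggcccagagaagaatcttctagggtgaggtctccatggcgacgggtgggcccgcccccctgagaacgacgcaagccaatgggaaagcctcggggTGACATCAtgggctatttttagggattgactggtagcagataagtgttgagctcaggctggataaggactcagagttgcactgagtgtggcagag
Junb, chr8:84978699-84978998, minus strand: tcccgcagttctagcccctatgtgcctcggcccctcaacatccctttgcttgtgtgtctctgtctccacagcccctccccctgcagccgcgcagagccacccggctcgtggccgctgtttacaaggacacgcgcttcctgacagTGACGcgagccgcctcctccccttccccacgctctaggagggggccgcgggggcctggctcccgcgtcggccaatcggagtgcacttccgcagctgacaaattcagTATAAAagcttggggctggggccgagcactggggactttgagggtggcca
Atf3, chr1:191183284-191183583, minus strand: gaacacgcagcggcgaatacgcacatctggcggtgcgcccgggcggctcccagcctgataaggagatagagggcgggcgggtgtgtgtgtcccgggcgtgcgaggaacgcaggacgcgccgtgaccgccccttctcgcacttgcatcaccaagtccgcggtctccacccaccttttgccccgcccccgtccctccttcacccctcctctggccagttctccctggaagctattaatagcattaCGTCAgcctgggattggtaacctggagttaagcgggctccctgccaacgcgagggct
Batf, chr12:85686470-85686769, plus strand: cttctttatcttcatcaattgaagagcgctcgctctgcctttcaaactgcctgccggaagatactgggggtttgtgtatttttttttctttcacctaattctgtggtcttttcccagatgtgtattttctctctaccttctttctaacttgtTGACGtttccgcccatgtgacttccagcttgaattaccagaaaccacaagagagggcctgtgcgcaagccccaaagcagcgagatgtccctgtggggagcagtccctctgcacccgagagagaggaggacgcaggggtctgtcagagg

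Of the 10 genes, 9 had such windows, 11 in all, because Maff has 3; Fosl1 had none. Motifs were searched on both strands in these 11 windows and in all 32851 mouse promoter windows of the same table. The AP-1 site TGANTCA was in none of the 11 windows, against 7.81% of all windows. The core site TGACG was in 7 of the 11, against 20.8% of all windows. It lay 129 and 66 bases upstream of the Fos start, 106 upstream of Junb, 98 upstream of Batf and 7 upstream of Atf3. The full element TGACGTCA, which contains TGACG, was found in 1 Maff window, 29 bases upstream (1.79% of all windows). The variant TGACATCA lay 45 bases upstream of both the Jun start and another Maff start (3.62% of all windows). The NF-kappaB motif was in the Fos, Fosb and Fosl2 windows, 214, 188 and 182 bases upstream (5.80% of all windows). The TATA box TATAAA (13.6% of all windows) lay 33 bases upstream of the Fos start and began on the start base of Junb. Searches were also made for the CArG box, the interferon-stimulated response element and the site TTCNNNGAA. The CArG box was in 0 of the 11 windows (1.63% of all windows). The interferon-stimulated element was in 1, of Fosl2 (3.44%), and TTCNNNGAA in 1, of Maff (8.3%). Distances are from the RefSeq starts. The outermost GENCODE start was the same for Fos and Jun, but lay 34706 bases upstream for Atf3 and 51 upstream for Batf, and 1210 bases downstream for Jund and 30 downstream for Junb. A match describes these letters only and is not by itself a binding site. The searches for TGACG and TGACATCA were chosen after the sequences were seen.

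Fos (ENSMUSG00000021250, chr12:85473890-85477273, plus strand), the founding partner of Jun in AP-1, stood at 138, 178 and 119 CPM in libraries labelled KO LPS against 26.8, 20.4 and 48.1 CPM in those labelled KO medium, and at 25.2, 82.2 and 30.2 CPM in WT LPS against 103, 133 and 119 CPM in WT medium. It was high in every library labelled KO LPS and in WT medium, and lower in the other 6, of which WT LPS 2 was the highest. Fosb (ENSMUSG00000003545, chr7:19302696-19310051, minus strand), a Fos paralogue, stood at 2.59, 12.1 and 2.39 CPM in libraries labelled KO LPS against 1.05, 0.496 and 1.82 CPM in those labelled KO medium, and at 1.26, 1.48 and 0.426 CPM in WT LPS against 0.769, 1.99 and 3.05 CPM in WT medium. The library labelled KO LPS 2 was the highest, and between 7 and 221 counts stood behind these values. That library and the one labelled KO LPS 3 also held the most neutrophil marker RNA (5909 and 7277 CPM), and whether this bears on Fosb was not tested.

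Fosl1 (ENSMUSG00000024912, chr19:5447547-5455946, plus strand) encodes Fra-1, a Fos protein without a strong activation domain. Its values were 11.5, 1.09 and 1.11 CPM in libraries labelled KO LPS against 6.14, 5.24 and 8.36 CPM in those labelled KO medium, and 12.6, 3.77 and 13.0 CPM in WT LPS against 1.49, 7.18 and 6.46 CPM in WT medium. Here the library labelled KO LPS 1 stood about as high as the upper WT LPS libraries, far from the other 2 of its group. Fosl2 (ENSMUSG00000029135, chr5:32135801-32157842, plus strand) encodes Fra-2, the related protein. It stood at 32.2, 65.2 and 74.4 CPM in libraries labelled KO LPS against 74.2, 75.5 and 144 CPM in those labelled KO medium, and at 89.6, 65.3 and 180 CPM in WT LPS against 56.3, 35.9 and 92.5 CPM in WT medium. The ranges of Fosl2 overlapped between every pair of groups.

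Jun (ENSMUSG00000052684, chr4:95049034-95052222, minus strand) encodes c-Jun, the main target of JNK. It stood at 167, 123 and 101 CPM in libraries labelled KO LPS against 58.4, 36.1 and 70.0 CPM in those labelled KO medium, and at 42.7, 128 and 60.6 CPM in WT LPS against 142, 122 and 140 CPM in WT medium. WT LPS 2 lay among the WT medium libraries, and the other 2 WT LPS libraries lay far below. Junb (ENSMUSG00000052837, chr8:84974484-84978718, minus strand), a Jun paralogue that can restrain c-Jun at AP-1 sites, stood at 228, 212 and 171 CPM in libraries labelled KO LPS against 535, 610 and 454 CPM in those labelled KO medium, and at 631, 219 and 498 CPM in WT LPS against 114, 241 and 114 CPM in WT medium. Again WT LPS 2 differed from the other 2 libraries of its group and lay within the WT medium range. It was also the only library of WT LPS with Xist (437 CPM). Nos2 stood at 831 CPM in WT LPS 2, against 2153 and 2704 CPM in WT LPS 1 and 3. Nlrc3 stood at 4.39 CPM in WT LPS 2, against 0.796 and 1.40 CPM in WT LPS 1 and 3. Whether any of these bears on the levels of WT LPS 2 was not tested. The 3′ end of Junb overlaps Prdx2 on the opposite strand, which had 1570 to 4056 counts. No source used here says whether counting used strand, so reads in the overlap cannot be told apart.

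Jund (ENSMUSG00000071076, chr8:70698949-70700616, plus strand), the Jun gene usually described as constitutive, stood at 106, 91.6 and 82.6 CPM in libraries labelled KO LPS against 124, 182 and 54.6 CPM in those labelled KO medium, and at 144, 37.5 and 54.7 CPM in WT LPS against 68.4, 130 and 58.1 CPM in WT medium. The spread within groups was as wide as that between them, and all group ranges overlapped. In each of the 4 groups the library with the highest Jund was also the one with the largest share of counts on ribosomal protein genes (symbols beginning Rpl or Rps and a digit). Those shares were 4.63%, 4.87%, 2.98% and 6.61% in libraries labelled KO LPS 1 and KO medium 2, in WT LPS 1 and in WT medium 2, within a range of 1.15% to 6.61% over all 12. Whether this has a part in the spread of Jund was not tested.

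Atf3 (ENSMUSG00000026628, chr1:191170296-191218039, minus strand), a stress-induced factor that dampens inflammatory genes in macrophages, stood at 350, 248 and 205 CPM in libraries labelled KO LPS against 543, 441 and 430 CPM in those labelled KO medium, and at 540, 447 and 406 CPM in WT LPS against 283, 320 and 270 CPM in WT medium. WT LPS lay wholly above WT medium, and the libraries labelled KO LPS wholly below those labelled KO medium. Batf (ENSMUSG00000034266, chr12:85686669-85709087, plus strand), which lacks an activation domain and pairs with Jun proteins and IRF factors, stood at 6.63, 11.3 and 15.2 CPM in libraries labelled KO LPS against 76.6, 67.6 and 30.0 CPM in those labelled KO medium, and at 52.5, 23.5 and 76.9 CPM in WT LPS against 10.9, 9.17 and 10.1 CPM in WT medium. The 3 WT medium libraries were close to each other, and the WT LPS libraries spread widely above them. Maff (ENSMUSG00000042622, chr15:79346621-79359076, plus strand), a small Maf without an activation domain, stood at 12.2, 8.62 and 3.87 CPM in libraries labelled KO LPS against 8.13, 8.01 and 12.9 CPM in those labelled KO medium, and at 12.9, 8.83 and 14.0 CPM in WT LPS against 3.23, 10.0 and 7.37 CPM in WT medium. Its group ranges overlapped throughout. Antisense or opposite-strand neighbours of Jun (Junos), Jund (Gm11175) and Fosl1 (Ccdc85b) also overlap these genes, with at most 49, 13 and 172 counts in a library.

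**Figure D1:**
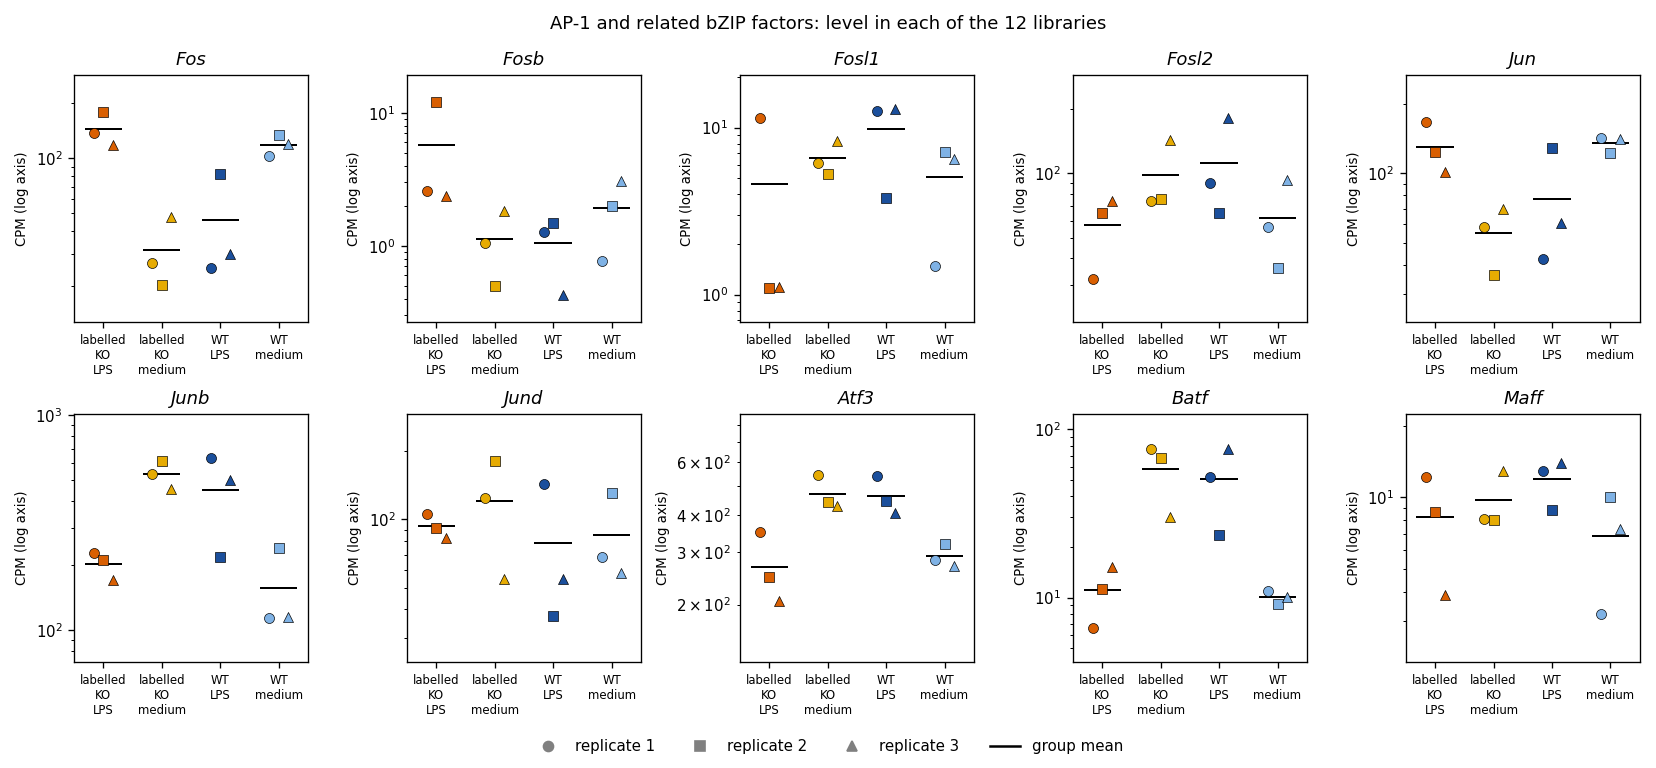
Level of each of the 10 genes in CPM on a log axis, by labelled group, with 1 point per library (circle, square and triangle for replicates 1, 2 and 3) and a bar at the group mean. Fos is highest in libraries labelled KO LPS and in WT medium, Junb, Atf3 and Batf in those labelled KO medium and in WT LPS, and WT LPS replicate 2 stands apart in Fos, Jun and Junb.

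The comparison of WT LPS with WT medium asks what 12 h of LPS did to these factors where Nlrc3 was not deleted. Batf, Junb, Fosl2 and Atf3 were higher with LPS, and no gene of the 10 was called lower. Calls are at an adjusted p under 0.05 from edgeR's quasi-likelihood test with Benjamini-Hochberg adjustment over all 13773 genes, and differences are log2 folds ± SE after trimmed-mean (TMM) scaling. Batf was 7.97-fold higher (3.0 ± 0.54, edgeR adjusted p = 0.0028), Junb 4.33-fold (2.12 ± 0.51, edgeR adjusted p = 0.013), Fosl2 2.92-fold (1.54 ± 0.47, edgeR adjusted p = 0.039) and Atf3 2.40-fold (1.26 ± 0.31, edgeR adjusted p = 0.015). These 4 called of 10 stand against 18.3% of all genes tested, and 4 called higher against 11.9%. The median log2 fold was 1.32 over the 10 genes and -0.06 over all genes.

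The immediate early pair did not follow. Fos had a log2 fold of -0.88 ± 0.39 (edgeR adjusted p = 0.14; 95% interval -1.73 to -0.03), and Jun one of -0.28 ± 0.33 (edgeR adjusted p = 0.61; 95% interval -1.01 to 0.45). In CPM the 3 WT LPS libraries lay below the 3 WT medium libraries for Fos, but after TMM scaling WT LPS 2 (80.9) was within the WT medium range (75.8 to 121). Maff (1.38 ± 0.52, edgeR adjusted p = 0.086), Fosl1 (1.59 ± 0.91, edgeR adjusted p = 0.26), Jund (0.48 ± 0.61, edgeR adjusted p = 0.64) and Fosb (-0.29 ± 0.75, edgeR adjusted p = 0.83) did not pass. The CPM ranges of WT LPS and WT medium did not overlap for 3 of the 10 genes, Fos, Atf3 and Batf, against 42.4% of all genes tested.

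Only the Batf call held in a fit of the 6 WT libraries alone, where 1 of the 10 genes was called. The edgeR adjusted p was 0.072 for Junb, 0.054 for Atf3 and 0.090 for Fosl2. Calls over all genes also fell in that fit, to 1590 from 2526 in the fit of all groups. With WT LPS 2 also left out of that fit, an alternative chosen after seeing the data, 5 of the 10 genes and 1997 of all genes were called. The 5 were Batf, Junb, Atf3 and Fosl2, higher, and Fos, lower by a log2 fold of -1.40 (edgeR adjusted p = 0.038). In the fit of all groups, the count of 4 became 1 on leaving out WT LPS 1, WT medium 1 or WT medium 3 and 2 on leaving out WT LPS 3. Calls over all genes fell as well, from 2526 to 1911, 1493, 1545 and 1384 in that order. Junb was not called without WT LPS 3 (edgeR adjusted p = 0.052), WT LPS 1 (0.056), WT medium 3 (0.059) or WT medium 1 (0.061), nor Atf3 without WT medium 1 (0.065), WT medium 3 (0.070) or WT LPS 1 (0.074). Fosl2 was not called without KO LPS 2, KO medium 1 or 2, WT LPS 1 or 3, or any WT medium library (edgeR adjusted p = 0.051 to 0.22). Fos was called lower without WT LPS 2 (-1.41, edgeR adjusted p = 0.019), and Maff higher without WT medium 2 (1.87, edgeR adjusted p = 0.033). With libraries scaled by their totals only, 3 genes were called, Batf and Junb higher and Fos lower (-1.37, edgeR adjusted p = 0.038). Calls over all genes rose to 4233 with this scaling. The median of all genes was then -0.64 in place of -0.06, so the log2 fold of Fos relative to that median was -0.73, and Atf3 (0.67, edgeR adjusted p = 0.061) and Fosl2 (0.86, edgeR adjusted p = 0.18) were not called. With the term for Xist, 5 genes were called, with Maff added (1.08, edgeR adjusted p = 0.044), which DESeq2 also called (adjusted p = 0.047). Calls over all genes were 3536 with that term and 3435 by DESeq2. With a block for the column numbers that a WT LPS and a WT medium library share, Fosl2 was not called (edgeR adjusted p = 0.059). Of other markers, 2 of 11 neutrophil genes (Camp and S100a8) and 1 of 10 stromal genes (Pdgfrb) were also called higher with LPS in WT, beside 11.9% of all genes tested. The part of these markers in the result was not tested.

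The comparison of libraries labelled KO LPS with those labelled KO medium asks the same of cells meant to lack Nlrc3. Here the same 4 genes were lower in libraries labelled KO LPS, and Fos was higher. Nos2 averaged 2.51 CPM in these libraries against 2071 CPM in those labelled KO medium, so the directions are those of the labels only. Batf was lower by a log2 fold of -3.17 ± 0.54 (edgeR adjusted p = 0.0014), Junb by -2.14 ± 0.51 (edgeR adjusted p = 0.0083), Atf3 by -1.56 ± 0.31 (edgeR adjusted p = 0.0035) and Fosl2 by -1.50 ± 0.47 (edgeR adjusted p = 0.031). Fos was 2.77-fold higher (1.47 ± 0.39, edgeR adjusted p = 0.016). These 5 called of 10 stand against 30.4% of all genes tested, 4 lower against 15.3% and 1 higher against 15.1%, and the median log2 fold was -1.19 over the 10 genes and 0.04 over all. Jun, at 101 to 167 CPM in libraries labelled KO LPS and 36.1 to 70.0 CPM in those labelled KO medium, did not overlap between the groups but had a log2 fold of only 0.52 ± 0.33 after TMM scaling (edgeR adjusted p = 0.26). Ranges did not overlap for 6 of the 10 genes, against 57.0% of all genes tested.

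A fit of the 6 libraries labelled KO alone called 5 genes, in which Batf, Junb, Atf3 and Fosl2 were again lower and Fos higher. The count was 3 without the library labelled KO LPS 2. Fos was not called without KO LPS 2 (edgeR adjusted p = 0.061), KO medium 1 (0.067) or KO medium 2 (0.070). Fosl2 was not called without KO LPS 1 (edgeR adjusted p = 0.076), KO LPS 2 (0.074), KO LPS 3 (0.051) or KO medium 3 (0.088), nor when libraries were scaled by totals only. Without KO LPS 1, Fosl1 was called lower (-3.31, edgeR adjusted p = 0.010). Scaling by totals called Jun (1.25, edgeR adjusted p = 0.023) and Fosb (2.33, edgeR adjusted p = 0.030) higher, while the median of all genes was 0.78. The term for Xist ended the call of Fosl2 (edgeR adjusted p = 0.062), and the block for shared column numbers called Jund lower (edgeR adjusted p = 0.0498).

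Some markers of other cells also differed in this comparison. In libraries labelled KO LPS, 5 of 11 tested neutrophil genes, 4 of 7 megakaryocyte genes and 2 of 6 B cell genes were called higher and none of them lower, while 1 of 10 stromal genes was lower. Of all genes tested, 15.1% were called higher and 15.3% lower, and the CPM ranges of 57.0% did not overlap. Summed megakaryocyte markers were at 625 to 893 CPM in libraries labelled KO LPS against 168 to 542 CPM in those labelled KO medium, and summed B cell markers at 12.9 to 89.5 CPM against 4.04 to 7.14 CPM. Neutrophil sums overlapped, at 1137 to 7277 CPM in libraries labelled KO LPS against 1367 to 3510 CPM in those labelled KO medium. Of the 9 macrophage markers, Csf1r was called higher and Cd14 and Fcgr1 lower. All libraries labelled KO medium carried Y-linked RNA and 2 of the 3 labelled KO LPS carried Xist. The part of these in the result was not tested, apart from the fit with the term for Xist.

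Among libraries labelled LPS, those labelled KO had less Batf, Junb, Fosl2 and Atf3 than WT and more Fos. The log2 folds were -2.78 ± 0.53 for Batf (edgeR adjusted p = 0.0035), -1.73 ± 0.50 for Junb (edgeR adjusted p = 0.027), -1.52 ± 0.47 for Fosl2 (edgeR adjusted p = 0.034) and -1.32 ± 0.31 for Atf3 (edgeR adjusted p = 0.010). Fos was 2.35-fold higher (1.23 ± 0.39, edgeR adjusted p = 0.040). This made 5 called of 10, against 24.1% of all genes tested, 4 lower against 13.7% and 1 higher against 10.4%, with a median log2 fold of -1.20 over the 10 genes and 0.06 over all. CPM ranges did not overlap for 4 of the 10, against 45.7%. Fosb had a larger log2 fold than Fos (1.92 ± 0.75) but did not pass (edgeR adjusted p = 0.084). It was called higher by DESeq2 (adjusted p = 0.038), without the filter (edgeR adjusted p = 0.032), with scaling by totals (0.034) and with the block for shared column numbers (0.034). Scaling by totals ended the call of Fosl2 (edgeR adjusted p = 0.14).

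Single libraries weighed on these calls. The count of 5 became 1 without the library labelled KO LPS 2 or KO LPS 3, 2 without WT LPS 3 and 3 without WT LPS 1. Calls over all genes fell as well, from 3324 to 1810, 1982, 1822 and 2466 in that order. Batf was called in each of these fits. Junb was not called without KO LPS 2 (edgeR adjusted p = 0.084), KO LPS 3 (0.099), WT LPS 1 (0.098) or WT LPS 3 (0.083), nor Atf3 without KO LPS 2 (0.052) or KO LPS 3 (0.052). Fosl2 was not called without KO LPS 1 (edgeR adjusted p = 0.082), KO LPS 2 (0.085), KO LPS 3 (0.059) or WT LPS 3 (0.16). Without KO LPS 1, Fosl1 was called lower (-3.73, edgeR adjusted p = 0.0080). The call of Fos held in 3 of the 12 fits that left out 1 library, with edgeR adjusted p from 0.0062 to 0.17, and it ended without any 1 library of the 9 others: KO LPS 1, 2 or 3, KO medium 1 or 2, WT LPS 1 or 3, and WT medium 1 or 3. Some markers of other cells differed here too. In libraries labelled KO LPS, 4 of 11 tested neutrophil genes, 4 of 7 megakaryocyte genes and 2 of 6 B cell genes were called higher and none of them lower, and 4 of 10 stromal genes were called lower. Of all genes tested, 10.4% were called higher and 13.7% lower, and the CPM ranges of 45.7% did not overlap. Summed megakaryocyte markers did not overlap, at 625 to 893 CPM in libraries labelled KO LPS against 149 to 505 CPM in WT LPS, nor did B cell markers, at 12.9 to 89.5 CPM against 5.44 to 12.0 CPM. Sums overlapped for neutrophils, at 1137 to 7277 CPM against 1147 to 4891 CPM, and for stromal cells, at 38.7 to 83.1 CPM against 40.9 to 289 CPM. Their part in the result was not tested.

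Among libraries labelled medium, those labelled KO had more of the same 4 factors than WT. Batf was 10.4-fold higher (3.38 ± 0.55, edgeR adjusted p = 0.0012), Junb 5.79-fold (2.53 ± 0.51, edgeR adjusted p = 0.0043), Fosl2 2.87-fold (1.52 ± 0.47, edgeR adjusted p = 0.032) and Atf3 2.84-fold (1.5 ± 0.31, edgeR adjusted p = 0.0048). Fos was just outside the threshold (-1.12 ± 0.39, edgeR adjusted p = 0.053). This made 4 called of 10, against 26.3% of all genes tested, and 4 higher against 14.0%, with a median log2 fold of 1.27 over the 10 genes and -0.02 over all. CPM ranges did not overlap for 5 of the 10, against 54.7%. Batf, Junb and Atf3 were called in every alternative tried, whereas Fosl2 was not called without KO medium 1 (edgeR adjusted p = 0.055), KO medium 2 (0.055), KO medium 3 (0.11), WT medium 1 (0.10) or WT medium 2 (0.072). Fos was called lower without KO medium 3 (edgeR adjusted p = 0.037), WT LPS 1 (0.040) or WT LPS 2 (0.022), without the filter (0.020), with scaling by totals (0.0065) and by DESeq2 (adjusted p = 0.028). Maff was called higher without WT medium 2 (edgeR adjusted p = 0.028). Scaling by totals also called Jun lower (-1.30, edgeR adjusted p = 0.019), while the median of all genes was -0.85, and did not call Fosl2 (0.27). All 3 libraries labelled KO medium carried Y-linked RNA, and 2 of the 3 WT medium libraries carried Xist. With the term for Xist, Batf, Junb and Atf3 were called and Fosl2 was not (edgeR adjusted p = 0.060). The block for shared column numbers called Jund higher (1.69, edgeR adjusted p = 0.044) and not Fosl2 (0.22). Of other markers, 2 of 11 neutrophil genes and 1 of 10 stromal genes were called higher, beside 14.0% of all genes tested. Of the macrophage markers, Fcgr1 and Cd14 were called higher and Lyz2 lower.

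**Figure D2:**
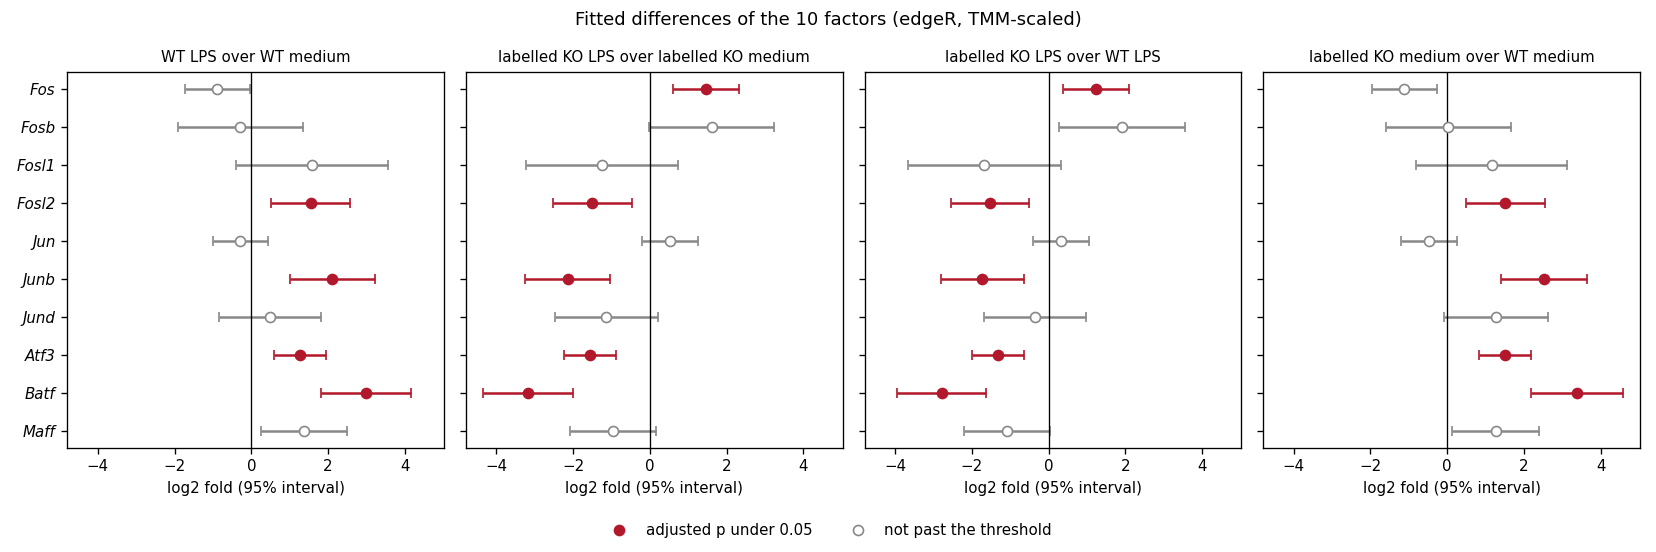
Log2 folds of the 10 genes with 95% intervals in 4 comparisons, from the edgeR fit with TMM scaling; filled red points passed an adjusted p of 0.05 and open grey points did not. Batf, Junb, Atf3 and Fosl2 lie right of 0 for WT LPS over WT medium and for labelled KO medium over WT medium, and left of 0 in the other 2 comparisons, where Fos lies right.

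The interaction asks whether the LPS difference was the same in both labelled genotypes. The difference of the log2 folds, labelled KO minus WT, was -6.17 ± 0.76 for Batf, -4.26 ± 0.72 for Junb, -3.04 ± 0.66 for Fosl2, -2.83 ± 0.44 for Atf3 and -2.34 ± 0.73 for Maff, and 2.35 ± 0.55 for Fos. The edgeR adjusted p was 7.7e-05 for Batf, 0.00062 for Junb, 0.0033 for Fosl2, 0.00038 for Atf3, 0.022 for Maff and 0.0052 for Fos. These 6 called of 10 stand against 41.1% of all genes tested, 5 lower against 20.6% and 1 higher against 20.5%. For Batf, Junb, Atf3, Fosl2 and Fos no single library ended the call. Maff lost it without KO medium 3 (edgeR adjusted p = 0.059), WT LPS 1 (0.055) or WT LPS 3 (0.063), and with the term for Xist (0.069). When libraries were scaled by totals only, 6 genes were also called, but Jun and Fosb (higher) took the place of Fosl2 and Maff. Calls over all genes were 8135 with that scaling, against 5657. Fosl1 was called lower by DESeq2 (adjusted p = 0.0497), without the filter (edgeR adjusted p = 0.020) and without KO LPS 1 (0.0030), and Jun higher without WT LPS 2 (edgeR adjusted p = 0.041).

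Since Nlrc3 and Nos2 went against the labels, the libraries labelled KO medium were also set beside WT LPS, and those labelled KO LPS beside WT medium. In the first of these, 0 of the 10 genes were called by edgeR or by DESeq2, and 0 had an unadjusted p under 0.05. Of all genes tested, edgeR called 0%, 270 genes had an unadjusted p under 0.05, and DESeq2 called 1 gene. The 10 log2 folds lay between -0.42 for Fosl1 and 0.79 for Jund. The 95% interval was -0.69 to 1.47 for Batf, -0.64 to 1.48 for Junb and -1.08 to 0.61 for Fos, so that differences past 2-fold lie within each interval.

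For the libraries labelled KO LPS against WT medium, 0 of the 10 genes were called by either tool, and 1, Fosb, had an unadjusted p under 0.05 (log2 fold 1.64 ± 0.74, edgeR adjusted p = 0.60). Of all genes tested, edgeR called 0%, 1135 genes had an unadjusted p under 0.05, and DESeq2 called 37. The 95% interval was -0.89 to 1.31 for Batf, -0.67 to 1.45 for Junb, -0.73 to 0.61 for Atf3 and -0.49 to 1.19 for Fos. CPM ranges overlapped for all 10 genes in both of these comparisons, while 7.61% of all genes did not overlap in the first and 9.05% in the second. A p that misses the threshold does not show that the groups are alike.

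The labels do not settle whether LPS and medium stand exchanged among the libraries labelled KO, and they were kept as given. If exchanged, each difference within the libraries labelled KO would turn its sign, so that Batf would be higher with LPS in both genotypes. Nlrc3 would then not be called lower in libraries labelled KO, with LPS or in medium. Its log2 fold was -0.94 ± 0.55 for libraries labelled KO medium minus WT LPS (edgeR adjusted p = 0.95). For those labelled KO LPS minus WT medium it was -0.12 ± 0.50 (edgeR adjusted p = 0.98). The interaction would then be the difference of the pair of comparisons above, libraries labelled KO medium minus WT LPS less those labelled KO LPS minus WT medium. That difference was 0.18 ± 0.71 for Batf, 0.029 ± 0.69 for Junb, 0.30 ± 0.43 for Atf3, -0.047 ± 0.65 for Fosl2, -0.41 ± 0.72 for Maff and -0.59 ± 0.55 for Fos. Of the 10 genes, 0 were called by edgeR or DESeq2 and 0 had an unadjusted p under 0.05. Of all genes tested, edgeR called 0%, DESeq2 called 0 and 553 had an unadjusted p under 0.05.

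Levels of different genes were compared per gene length, in FPKM (fragments per kilobase of gene, scaled for library total). In the libraries labelled KO LPS, Atf3 came first at 124 ± 34.6 FPKM, then Junb at 88.4 ± 12.7, Fos at 61.6 ± 12.9, Jund at 55.9 ± 6.98 and Jun at 40.9 ± 10.4 (SD, n = 3). In those labelled KO medium, Junb at 232 ± 34.0 FPKM and Atf3 at 219 ± 29.0 came first, followed by Jund at 72.1 ± 38.3, Batf at 41.3 ± 17.6, Jun at 17.2 ± 5.39 and Fos at 13.5 ± 6.17. In both groups several neighbours overlapped in range, among them Atf3 and Junb.

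In WT LPS, Atf3 at 216 ± 31.9 FPKM and Junb at 195 ± 91.4 led, their ranges overlapping, before Jund at 47.1 ± 34.1, Batf at 36.2 ± 19.0, Jun at 24.2 ± 14.2 and Fos at 19.5 ± 13.4. In WT medium, Atf3 led at 135 ± 12.2 FPKM, above and without overlap with Junb at 67.9 ± 31.8. Jund, Fos and Jun followed at 51.3 ± 23.4, 50.3 ± 6.49 and 42.3 ± 3.49 FPKM, overlapping in range. Fosl2, Fosl1, Maff and Fosb were the 4 lowest in the group labelled KO medium and in WT LPS, and Batf joined them below Jun in the other 2 groups (7.84 ± 3.04 FPKM in libraries labelled KO LPS and 7.15 ± 0.62 in WT medium). Fosb was the lowest of the 10 in every group, at 0.909 ± 0.886 FPKM in libraries labelled KO LPS and 0.180 ± 0.107 in those labelled KO medium, against 0.169 ± 0.0891 in WT LPS and 0.310 ± 0.183 in WT medium.

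Shares of the summed FPKM show how the mix differed. The 4 Fos family genes made up 18.3% ± 3.14 of the sum in libraries labelled KO LPS and 4.75% ± 2.66 in those labelled KO medium, against 7.10% ± 3.15 in WT LPS and 16.6% ± 2.71 in WT medium (SD, n = 3 each). The ratio of Junb to Jun was 2.20 ± 0.27 in libraries labelled KO LPS and 15.0 ± 7.5 in those labelled KO medium, against 11.4 ± 9.07 in WT LPS and 1.66 ± 0.93 in WT medium. WT LPS 2 alone had a ratio of 2.36, within the range of WT medium, while the other WT LPS libraries had 20.5 and 11.4. The ratio of Fos to Fosl2 was 11.8 ± 5.55 in libraries labelled KO LPS and 1.33 ± 0.19 in those labelled KO medium, against 2.34 ± 2.47 in WT LPS and 9.36 ± 5.23 in WT medium. RNA shares say nothing of protein or of which dimers formed.

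**Figure D3:**
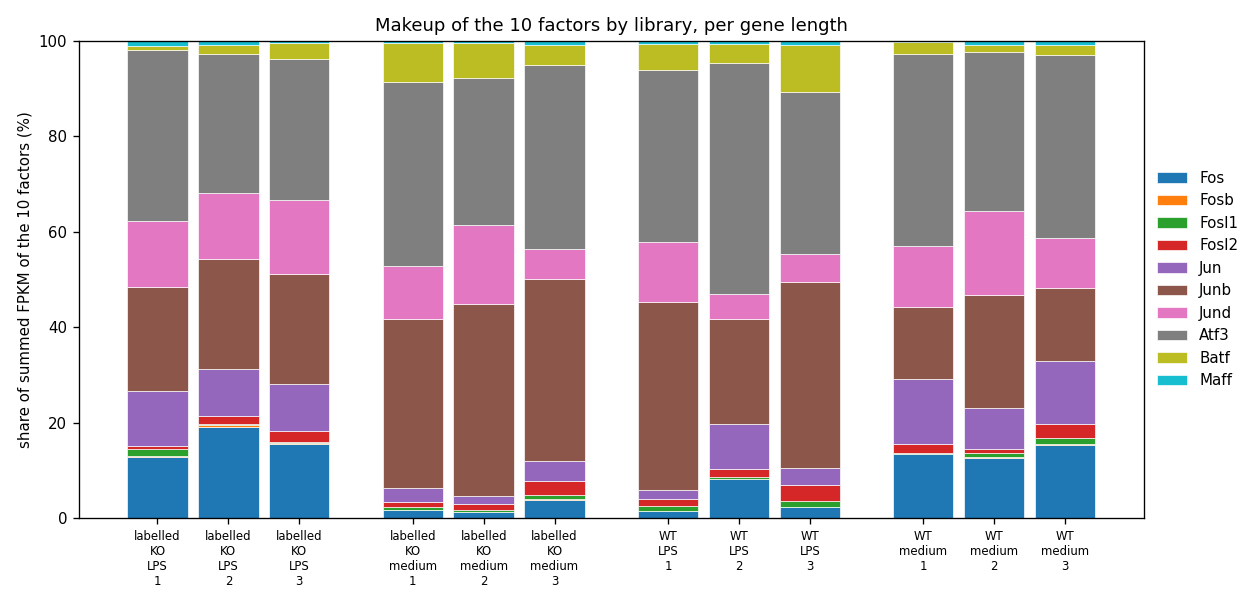
Share of the summed FPKM of the 10 genes taken by each gene, in percent, with 1 stacked bar per library and replicates 1 to 3 side by side in each labelled group. Fos and Jun take larger shares in libraries labelled KO LPS, in WT medium and in WT LPS replicate 2 than in the others, where Junb and Batf take more.

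Across the 12 libraries, log2 CPM after TMM scaling gave a Pearson r of 0.933 between Junb and Atf3, 0.913 between Junb and Batf and 0.886 between Atf3 and Batf. Fos had r = 0.811 with Jun, -0.914 with Batf and -0.811 with Atf3. Fosl1 was closest to Maff (0.873) and Fosl2 to Batf (0.850). These values describe 12 libraries that fall into groups and share depth and scaling, so they carry no test. Among genes of at least 5 CPM outside the 10, the most like Junb were Rps6ka4 (r = 0.995), Stard3nl (0.989) and Alas1 (0.986). The most like Batf were Ifngr2 (0.985), Slc2a6 (0.979) and Ptpn1 (0.977), and the most like Atf3 were Asf1a (0.986), Gch1 (0.981) and Itga5 (0.981). For Fos they were Arhgef7 (0.940), Cnr2 (0.937) and Nt5c2 (0.936), for Jun Tmem41b (0.913), Mmp27 (0.889) and Antxr2 (0.874), and for Fosl2 Rffl (0.988), Pde4b (0.974) and Itga9 (0.968). Fosb had its closest match at a lower value, with Retnlg (0.732), a neutrophil gene that averaged 36.1 CPM in libraries labelled KO LPS against 0.387 CPM in those labelled KO medium, and 0.191 CPM in WT LPS against 2.94 CPM in WT medium. For Jund the closest was Isoc2a (0.986), for Fosl1 Hnrnpdl (0.980) and for Maff Akirin1 (0.929).

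A list of 41 other bZIP genes was followed beside the 10, of which 37 were tested. With LPS in WT, 6 were higher and 2 lower, with a median log2 fold of 0.27. Over all genes tested, 11.9% were higher and 6.46% lower, with a median of -0.06, and this background holds for the lists that follow. Batf2, an interferon-inducible relative of Batf, averaged 132 ± 59.1 CPM in WT LPS and 9.01 ± 0.68 CPM in WT medium (SD, n = 3 each), a log2 fold of 4.52 ± 0.46 (edgeR adjusted p = 9.3e-05). Mafk, a small Maf like Maff, averaged 66.2 ± 5.37 CPM in WT LPS and 36.5 ± 4.29 CPM in WT medium (1.48 ± 0.23, edgeR adjusted p = 0.0014). The other 4 that rose were Cebpb (2.21), Creb5 (1.91), Nfil3 (1.89) and Jdp2 (1.71), the last a repressor of AP-1. Cebpa, which drives myeloid differentiation, averaged 20.0 ± 7.86 CPM in WT LPS and 143 ± 13.4 CPM in WT medium (-2.29 ± 0.35, edgeR adjusted p = 0.0011), and Atf5 was lower by -1.29 ± 0.27 (edgeR adjusted p = 0.0067). Among libraries labelled LPS, those labelled KO differed from WT in 11 of the 37, 5 higher and 6 lower (median log2 fold -0.20). Of all genes, 10.4% were higher and 13.7% lower (median 0.06). Cebpa (2.82 ± 0.35, edgeR adjusted p = 0.00033) and Atf5 (1.43 ± 0.27, edgeR adjusted p = 0.0035) were higher, and Batf2 (-4.40 ± 0.45, edgeR adjusted p = 9.3e-05) and Creb5 (-2.29 ± 0.33, edgeR adjusted p = 0.00072) lower. In libraries labelled KO medium, 8 of the 37 were higher and 6 lower than in WT medium, beside 14.0% and 12.3% of all genes. Against WT LPS, 0 of the 37 were called in them (median -0.06), and 0% of all genes.

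**Figure D4:**
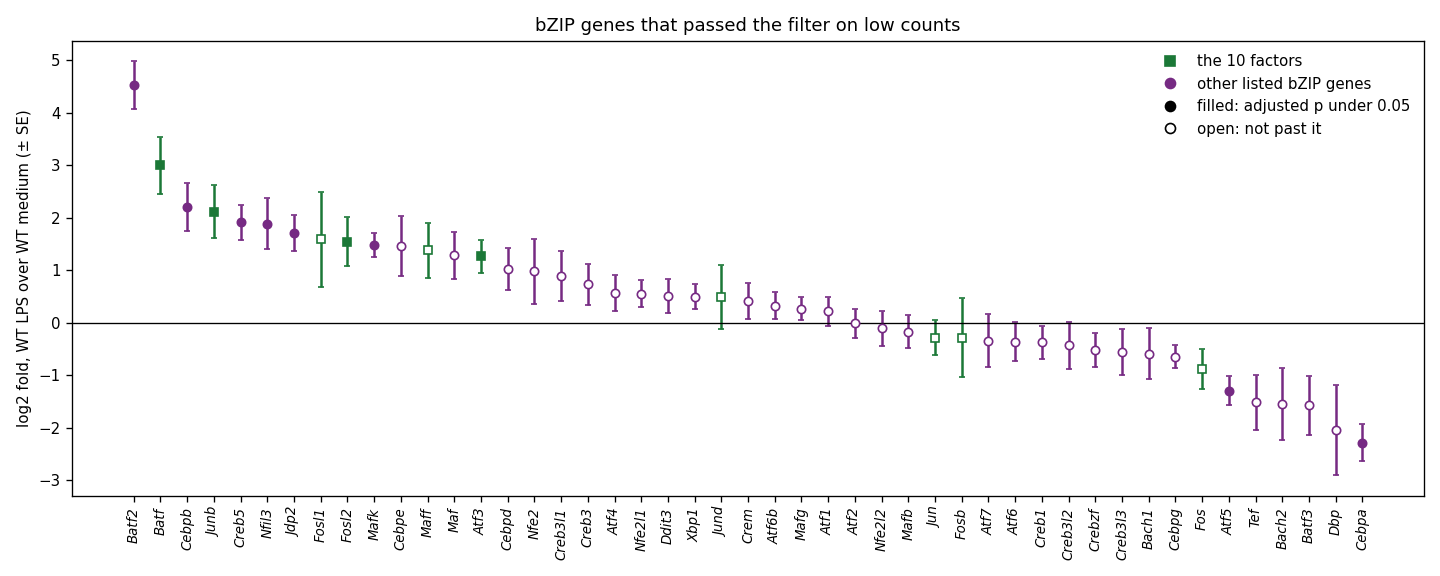
Log2 fold (± SE) of WT LPS over WT medium for the 10 genes (green squares) and the 37 other tested bZIP genes (purple circles), in order of fold; filled points passed an adjusted p of 0.05. Batf2 (4.52) and Batf (3.0) lie highest and Cebpa (-2.29) lowest.

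Kinases and factors upstream of AP-1 were also followed as RNA, which says nothing of their phosphorylation. Of 35 tested in WT, 6 were higher with LPS and 1 lower (median log2 fold 0.23). Map2k1, which encodes the ERK kinase MEK1, averaged 330 CPM in WT LPS and 108 CPM in WT medium (2.23 ± 0.30, edgeR adjusted p = 0.00053). Map2k4, a kinase of JNK, averaged 112 CPM in WT LPS and 56.0 CPM in WT medium (1.65 ± 0.30, edgeR adjusted p = 0.0032). Map3k8 (1.75), which links Toll-like receptor signals to ERK, Mapkapk2 (1.91), a p38 substrate, Mapk9 (0.90), which encodes a JNK, and Elk3 (1.14) rose as well. Mef2c, a factor that acts on the Jun promoter, was lower (-1.66 ± 0.44, edgeR adjusted p = 0.020). Among libraries labelled LPS, 5 of the 35 were higher and 7 lower in those labelled KO than in WT (median log2 fold 0.07). Of all genes, 10.4% were higher and 13.7% lower. Map2k1 was at -2.22 ± 0.30 (edgeR adjusted p = 0.00053) and Map2k4 at -1.63 ± 0.30 (edgeR adjusted p = 0.0029). Mef2c (1.62 ± 0.44, edgeR adjusted p = 0.019) and Map2k5, the kinase of ERK5 (0.90 ± 0.22, edgeR adjusted p = 0.012), were higher. In libraries labelled KO medium, 7 of the 35 were higher and 3 lower than in WT medium, beside 14.0% and 12.3% of all genes. Against WT LPS, 0 of the 35 were called in them (median -0.08), and 0% of all genes.

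Of the other immediate early genes listed, 29 were tested. Of these, 9 were higher with LPS in WT and 1 lower (median log2 fold 0.62). Zfp36, whose protein speeds decay of inflammatory RNA, averaged 490 CPM in WT LPS and 151 CPM in WT medium (2.33 ± 0.37, edgeR adjusted p = 0.0014), and Csrnp1 rose by 2.63 ± 0.42 (edgeR adjusted p = 0.0015). Egr2 averaged 9.23 CPM in WT LPS and 41.1 CPM in WT medium (-1.54 ± 0.47, edgeR adjusted p = 0.041). Among libraries labelled LPS, 1 of the 29 was higher in those labelled KO than in WT, namely Egr2 (1.66 ± 0.47, edgeR adjusted p = 0.025). There were 8 lower (median log2 fold -0.29), beside the same 10.4% and 13.7% of all genes. Among the lower were Klf6 (-2.29 ± 0.32, edgeR adjusted p = 0.00065) and Zfp36 (-1.76 ± 0.36, edgeR adjusted p = 0.0053). In libraries labelled KO medium, 7 of the 29 were higher and 1 lower than in WT medium, beside 14.0% and 12.3% of all genes. Against WT LPS, 0 of the 29 were called in them (median 0.04), and 0% of all genes.

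Of 37 genes listed as AP-1 targets, many of which other LPS-activated factors also drive, 32 were tested. With LPS in WT, 12 were higher and 1 lower, and the median log2 fold of 1.51 compares with -0.06 over all genes. Cdkn1a, the cell cycle inhibitor p21, averaged 459 CPM in WT LPS and 129 CPM in WT medium (2.46 ± 0.36, edgeR adjusted p = 0.00083). The cytokine gene Il6 averaged 157 CPM in WT LPS and 1.71 CPM in WT medium (7.23 ± 1.15, edgeR adjusted p = 0.0014). Mmp13 (5.47), Timp1 (4.81), Gja1 (3.64), Hbegf (3.27), Mmp14 (3.14) and Ptgs2 (2.96) also rose, and the growth factor gene Hgf fell by 1.73 on the log2 scale (edgeR adjusted p = 0.049). Among libraries labelled LPS, 0 of the 32 were higher in those labelled KO than in WT and 13 were lower (median log2 fold -1.61). Of all genes, 10.4% were higher and 13.7% lower (median 0.06). Nos2 averaged 2.51 CPM in libraries labelled KO LPS, so these directions are those of the labels only. In libraries labelled KO medium, 13 of the 32 were higher and 1 lower than in WT medium (median 1.68), beside 14.0% and 12.3% of all genes. Against WT LPS, 0 of the 32 were called in them (median 0.15), and 0% of all genes. Il6 averaged 1.02 CPM in libraries labelled KO LPS and 157 CPM in WT LPS (-7.88 ± 1.19, edgeR adjusted p = 0.00096), and Gja1, a gap junction gene, 2.94 CPM in libraries labelled KO LPS and 42.8 CPM in WT LPS (-4.42 ± 0.66, edgeR adjusted p = 0.00089).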

How the data were processed

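Gene tables of 12 RNA sequencing libraries were analysed. The deposited counts are whole reads per gene, not normalized; the authors' FPKM table holds those counts divided by library total and gene length, checked to within 0.056% at 100 counts or more. The build was mm10, per the submitters' processing notes, and how reads were aligned and counted is not given in the sources used here. Both a TruSeq and a KAPA Stranded kit are named in the labels. Positions are from GENCODE M21 (GRCm38), which matched 54409 of 54446 identifiers, and promoters from RefSeq (GRCm38.p6).

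Counts were fitted with edgeR 4.0.16 in R 4.3.3 (filterByExpr, TMM factors of 0.702 to 1.46, glmQLFit and glmQLFTest) with 1 mean per group over all 12 libraries, after testing on simulated data. The factors differed by group. They were 1.20 to 1.24 in libraries labelled KO LPS and 0.702 to 0.791 in those labelled KO medium. In WT LPS they were 0.765 to 1.02 and in WT medium 1.10 to 1.46. P-values were adjusted by Benjamini-Hochberg over 13773 genes and calls made under 0.05; standard errors come from the F statistic. Tables were written with Python 3.11.15 and pandas 2.3.3. Alternatives were library-size and RLE scaling, no filter or a mean of at least 1 CPM, DESeq2 1.42.0, a replicate block, fits of 1 genotype alone and leaving out each library. A term for libraries with more Xist than Y-linked RNA and a block for shared column numbers were added after the data were seen. The most alike pair of libraries differed by a chi-square of 24.3 per degree of freedom, so none was taken as a repeat of another.

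The 10 genes, the comparisons, the other gene lists and the motifs were chosen with earlier results of these data known. Named genes are all 10, Nlrc3 and Nos2, up to 2 called genes of smallest p per list and direction in WT LPS against WT medium and in KO LPS against WT LPS, and up to 3 genes of highest r per member; other called genes of a list named with a log2 fold only were chosen after their values were seen.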

Additional observations from a re-analysis of the deposited data

Results flagged for a closer look

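The LPS difference of 6 of the 10 genes was not the same in the 2 labelled genotypes by a test of that difference itself (edgeR interaction). For Batf the difference of log2 folds, libraries labelled KO minus WT, was -6.17, from -3.17 in the libraries labelled KO and 3.0 in WT. For Junb it was -4.26 (-2.14 labelled KO, 2.12 WT), for Fosl2 -3.04 (-1.50 labelled KO, 1.54 WT) and for Atf3 -2.83 (-1.56 labelled KO, 1.26 WT). For Maff it was -2.34 (-0.96 labelled KO, 1.38 WT), although neither of the 2 single differences passed the test. For Fos it was 2.35 (1.47 labelled KO, -0.88 WT). Of all genes tested, 41.1% passed the same test. These values stand beside the check of the labels, in which Nlrc3 and Nos2 went against them. If LPS and medium stand exchanged among the libraries labelled KO, which the labels do not settle, the LPS difference of Batf in them would be of the opposite sign and the interaction 0.18 for Batf, 0.029 for Junb, -0.047 for Fosl2, 0.30 for Atf3, -0.41 for Maff and -0.59 for Fos, none of which was called. Nlrc3 would then not be called lower in libraries labelled KO, at log2 folds of -0.94 against WT LPS and -0.12 against WT medium.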

How the results depend on the processing

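The count of called members in WT LPS against WT medium was 4, against 1 with only the 6 WT libraries and 1 to 5 when 1 library was left out. In the same leave-one-out fits it was 3 to 5 (5 with all libraries) for labelled KO LPS against labelled KO medium, 1 to 5 (5) for labelled KO LPS against WT LPS, 3 to 5 (4) for labelled KO medium against WT medium, 5 to 7 (6) for the interaction and 0 to 0 (0) for the remaining comparisons. DESeq2 called 5, 5, 6, 5 and 7 members in the first 5 of these in the order WT LPS, labelled KO LPS, LPS genotype, medium genotype and interaction. Of all genes it called 3435, 5055, 4265, 4523 and 6577, against 2526, 4186, 3324, 3620 and 5657 in the main fit. With the term for Xist the member counts were 5, 4, 5, 3 and 5, and with a block for shared column numbers 3, 6, 6, 4 and 6. Counts over all genes were 3536, 3677, 4456, 3322 and 5385 with the term. With the block they were 2827, 4719, 2675, 2674 and 6066. Batf kept its call under every alternative in those 5 comparisons.

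Scaling by totals only moved the median log2 fold of all genes from near 0 to -0.64 in WT LPS against WT medium, 0.78 in labelled KO LPS against labelled KO medium, 0.57 in labelled KO LPS against WT LPS and -0.85 in labelled KO medium against WT medium. The genes called were then 4233, 6494, 4681 and 6644 in that order, against 2526, 4186, 3324 and 3620, and the share of them that were higher was 24.4%, 81.9%, 74.5% and 16.1%, against 64.8%, 49.7%, 43.2% and 53.4%. For the interaction that share was 81.1%, against 49.9%. A fit of only the 6 WT libraries called 1590 genes in WT LPS against WT medium. Without 1 library the ranges were 1384 to 3042, 2543 to 5095, 1810 to 4093 and 2196 to 4735, and 4709 to 6296 for the interaction. In labelled KO medium against WT LPS and labelled KO LPS against WT medium, no filter gave 3 and 99 called genes and DESeq2 1 and 37, against 0 and 0, and without 1 library there were 0 to 2 and 0 to 245. The cause was not tested.

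A replicate block called 4, 5, 5, 4 and 6 members, as without it. Of all genes it called 2139, 3620, 2898, 3164 and 5285 in the same order. The replicate numbers were not taken as pairs: same-numbered libraries of 2 groups had deviations correlated at -0.63 to 0.57, over 0.1 in 8 of 18 pairs, and 14 of 36 best matches carried the library's own number. The column names give WT LPS 1 and WT medium 2 a shared number, and likewise WT LPS 2 and WT medium 3. Their deviations correlated at 0.59 and 0.46, and each pair was alike in Xist and Y-linked RNA, but the labels do not say that a number marks an animal. Of the log2 folds of single members, 1440 kept their side of the threshold and direction under an alternative, 64 lost and 30 gained a call, and 96 that were not called changed sign.

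With 3 libraries a group, folds of low genes carry wide errors: Fosb had as few as 7 counts in a library and an SE of 0.75 on its log2 fold. The label check, the overlap of Junb with Prdx2 and neutrophil RNA in single libraries are further limits on these values.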
